A study of Sus scrofa with 12 samples.

Results

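The genes of transforming growth factor beta (TGF-beta) and bone morphogenetic protein (BMP) signalling were examined in porcine aortic valve interstitial cells (paVICs), the fibroblast-like cells of the valve leaflet. The set holds 47 genes listed by name, and each of them has a row among the 31908 genes of the count table. Of the 47 genes, 46 passed the filter on low counts and were tested with 13216 genes in all. Noggin (NOG), a secreted BMP antagonist, was not tested, since it had between 0 and 39 counts per library. A total of 9 genes of the set changed in at least 1 comparison, and the other 37 tested genes passed no test. TGFBR1, BMPR1A, SMAD5, and SKIL rose with LPC and with dantrolene, each given alone. These 4 were 8.70% of the 46 tested, near the shares of all tested genes called higher (8.54% with LPC and 7.54% with dantrolene). TGFB3, BMP4, ID3, and TGFBI fell with dantrolene alone (8.70%, beside 1.26% of all genes called lower). Of these 4 falls, only that of TGFBI was called in every alternative run. INHBA was lower with LPC + dantrolene than with LPC alone, a comparison in which 0.288% of all genes were called lower.

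Both branches of the pathway work through the same kinds of parts. A secreted ligand brings together type I and type II receptor kinases at the cell surface, and the type I receptor then phosphorylates SMAD proteins, which join SMAD4 and enter the nucleus. TGF-beta and activin ligands act mainly through SMAD2 and SMAD3, and BMPs through SMAD1, SMAD5, and SMAD9. In the aortic valve, TGF-beta is known to activate interstitial cells into myofibroblasts, and BMP signalling is known for its part in osteogenic differentiation and calcification.

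The cells were wild type and came from valves pooled from several pig hearts per isolation, with the endothelial layer wiped off before digestion. They were frozen, thawed, and passaged before use, and each replicate number is a separate isolation treated on its own day. The question was what dantrolene, an inhibitor of the ryanodine receptor calcium channel, does to cells given lysophosphatidylcholine (LPC), a component of oxidized low-density lipoprotein. The 4 groups of 3 libraries were a vehicle control, LPC at 10 μM, dantrolene at 60 μM, and both agents at those doses (LPC + dantrolene). All groups shared 0.6% DMSO, 0.1% ethanol, 1% bovine growth serum, and a treatment of 24 h.

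Depth was similar across the libraries, with 16489684 to 24105935 counts on genes, and 3 counts were worth 0.114 to 0.186 CPM, the unit that divides a gene's counts by the library size. Levels below are CPM scaled by TMM factors, which were 0.879 to 0.918 in the vehicle group, 0.863 in LPC + dantrolene replicate 2, and 0.923 to 1.15 in the other treated libraries. The same libraries, vehicle and LPC + dantrolene replicate 2, were the lowest for TGFBR1, BMPR1A, SMAD5, and SKIL below, and the part of this difference in scaling was not tested. CPM is not divided by transcript length, so levels of different genes are not compared. LPC + dantrolene replicate 2 stood apart from the rest, with a median correlation of 0.921 with the other libraries, against 0.937 to 0.966 for the others, and with the fewest genes detected (13371). Results for the set that rest on this library are therefore given with and without it. The 12 fibroblast and valve interstitial markers were all tested, and summed to 79654 to 92421 CPM with vehicle, 57950 to 84934 CPM with LPC, 55702 to 73787 CPM with dantrolene, and 58583 to 105369 CPM with LPC + dantrolene. The 10 endothelial markers summed to 143 to 178 CPM in the vehicle group, 108 to 144 CPM with LPC, 123 to 129 CPM with dantrolene, and 112 to 115 CPM with LPC + dantrolene. The 6 smooth muscle markers summed to 2360 to 4463 CPM with vehicle, 2382 to 4296 CPM with LPC, 1923 to 2497 CPM with dantrolene, and 1049 to 2970 CPM with LPC + dantrolene. The part of these marker differences in the results below was not tested. Markers of leukocytes summed to at most 28.5 CPM (PTPRC and CD163 at 0), of cardiomyocytes to at most 1.68 CPM (TNNT2 at 0), and of erythroid cells to at most 0.154 CPM (HBB and AHSP at 0).

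Against vehicle, the fitted log2 fold change lay between −1 and 1 for 41 of the 46 tested genes with LPC, for 38 with dantrolene, and for 40 with LPC + dantrolene. The median log2 fold change of the set was −0.24 with LPC, −0.27 with dantrolene, and −0.19 with LPC + dantrolene, beside medians over all tested genes of −0.18, −0.11, and −0.08. Scaling by total counts alone moved the medians over all genes to −0.0023, 0.13, and 0.12, and those of the set to −0.073, −0.041, and 0.0025, so the sign of the set's median with LPC + dantrolene depends on the scaling. Between LPC + dantrolene and LPC the median of the set was −0.25, beside a median of 0.017 over all genes. In that comparison 31 of the 46 genes lay below 0, beside 48.4% of all genes. With RLE size factors or total counts the set's median was −0.23 or −0.25. The 3 treated groups share the vehicle libraries, and their values are given side by side for that reason. In whole-culture RNA, fewer cells expressing a gene and less of its RNA per cell cannot be told apart.

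**Figure D1:**
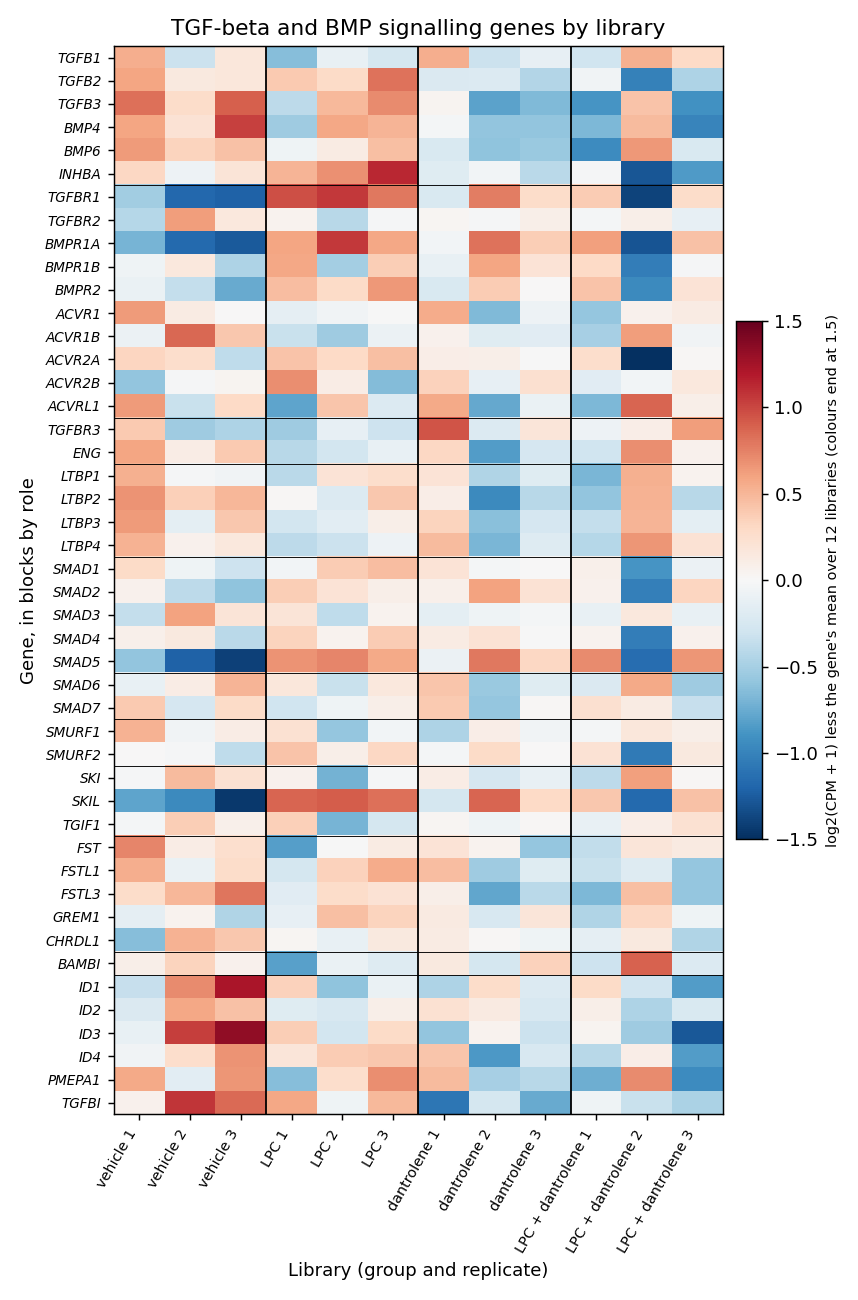
Level of each of the 46 tested genes (rows, in blocks by role) in each of the 12 libraries (columns), as log2(CPM + 1) less the gene's mean over the 12 libraries, with red above and blue below that mean. The rows of TGFBR1, BMPR1A, SMAD5, and SKIL are blue in the 3 vehicle libraries and in LPC + dantrolene replicate 2, and red in the 3 LPC libraries.

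Among the 10 receptors, TGFBR1 and BMPR1A rose with LPC and with dantrolene and the other 8 did not pass the test, among them the type I receptors BMPR1B, ACVR1, ACVR1B, and ACVRL1. Over all tested genes, 8.54% were called higher with LPC and 7.54% with dantrolene. TGFBR1 encodes the type I receptor for TGF-beta (Sscrofa11.1, chr1:240842735-240918267). Its level was 34.5, 21.6, and 21.0 CPM in vehicle replicates 1 to 3, 98.7, 105.2, and 87.4 CPM with LPC, 42.5, 86.0, and 60.6 CPM with dantrolene, and 65.6, 18.5, and 60.6 CPM with LPC + dantrolene. All LPC and dantrolene libraries lay above all vehicle libraries, whereas LPC + dantrolene replicate 2 lay below them. The mean was 25.7 ± 7.62 CPM with vehicle (SD, n = 3), and TGFBR1 was 3.78-fold higher with LPC (log2 fold change 1.92, SE 0.36, adjusted p = 4.03e-05) and 2.45-fold higher with dantrolene (1.29, SE 0.35, adjusted p = 0.00755). With LPC + dantrolene the log2 fold change was 0.91 (SE 0.35, adjusted p = 0.114), and without replicate 2 of that group it was 1.35 (SE 0.29, adjusted p = 0.000306).

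BMPR1A encodes a type I receptor for BMPs (chr14:87743270-87891790). It was at 19.4, 13.8, and 12.8 CPM in the vehicle libraries, 48.9, 68.0, and 48.6 CPM with LPC, 31.1, 57.3, and 41.6 CPM with dantrolene, and 49.6, 12.5, and 43.8 CPM with LPC + dantrolene. Again LPC + dantrolene replicate 2 was the lowest of the 12 libraries, and the other 8 treated libraries lay above the vehicle group. BMPR1A was 3.60-fold higher with LPC (log2 fold change 1.85, adjusted p = 9.77e-05), 2.83-fold higher with dantrolene (1.50, adjusted p = 0.00202), and 2.30-fold higher with LPC + dantrolene (1.20, adjusted p = 0.0198). The last value was 1.66 (adjusted p = 1.19e-05) without LPC + dantrolene replicate 2.

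The other 8 receptors passed no test. BMPR2, the type II receptor for BMPs, came closest with LPC, where its 3 libraries (79.8 to 103.2 CPM) lay above the vehicle range of 38.4 to 60.9 CPM. Its log2 fold change there was 0.87 (SE 0.33, adjusted p = 0.101). Without LPC + dantrolene replicate 2 this comparison passed the test, at 0.93 (adjusted p = 0.00659). TGFBR2, the type II partner of TGFBR1, had fitted values of −0.29 on the log2 scale with LPC, −0.15 with dantrolene, and −0.20 with LPC + dantrolene, each with an SE of 0.32. The receptors ACVR1, ACVR1B, ACVR2A, ACVR2B, BMPR1B, and ACVRL1, the last best known from endothelium, ranged from −0.78 (ACVR1B with LPC) to 0.57 (ACVR2B with dantrolene). The co-receptors TGFBR3 (betaglycan) and ENG (endoglin) also passed no test. ENG, which is abundant in endothelium, was at 147 to 181 CPM with LPC, below the vehicle range of 211 to 295 CPM, and its log2 fold change was −0.64 (adjusted p = 0.333).

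Among the 5 receptor-regulated or common SMADs, SMAD5 rose and the others passed no test. SMAD5 carries the BMP signal from the type I receptor to the nucleus (chr2:138287635-138344092). Its level was 13.1, 8.18, and 7.09 CPM with vehicle, 33.1, 34.4, and 30.7 CPM with LPC, 19.1, 36.1, and 25.4 CPM with dantrolene, and 33.8, 8.70, and 32.8 CPM with LPC + dantrolene. The LPC libraries lay close together, and all of them were above all vehicle libraries. SMAD5 was 3.45-fold higher with LPC (log2 fold change 1.79, SE 0.37, adjusted p = 0.000223), 2.83-fold higher with dantrolene (1.50, adjusted p = 0.00247), and 2.65-fold higher with LPC + dantrolene (1.41, adjusted p = 0.00553), the last rising to 1.86 (adjusted p = 2.22e-06) without LPC + dantrolene replicate 2.

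SMAD1, which also carries the BMP signal, had log2 fold changes of 0.30 with LPC, 0.07 with dantrolene, and −0.25 with LPC + dantrolene. SMAD2, which serves TGF-beta and activin, was at 24.2 to 38.7 CPM with vehicle, 39.6 to 48.1 CPM with LPC, 39.1 to 56.8 CPM with dantrolene, and 38.9, 17.8, and 46.7 CPM with LPC + dantrolene. The LPC and dantrolene libraries of SMAD2 did not overlap with the vehicle libraries, but its log2 fold changes of 0.52 (adjusted p = 0.514) and 0.61 (adjusted p = 0.378) did not pass the test. SMAD3 and the shared partner SMAD4 stayed between −0.28 and 0.31 in the 3 comparisons with vehicle. The inhibitory SMAD6 and SMAD7, which compete for the activated receptor, stayed between −0.26 and −0.15, and the ubiquitin ligases SMURF1 and SMURF2, which mark receptors and SMADs for degradation, between −0.33 and 0.41. None of these passed a test.

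SKIL, also called SnoN, is a nuclear co-repressor that binds SMAD complexes and is itself induced by TGF-beta (chr13:109029831-109059176). SKIL was at 34.4, 30.6, and 21.5 CPM with vehicle, 111.4, 113.8, and 108.0 CPM with LPC, 50.1, 111.4, and 74.5 CPM with dantrolene, and 80.0, 26.4, and 82.0 CPM with LPC + dantrolene. All 3 LPC libraries and all 3 dantrolene libraries were above the vehicle range, and LPC + dantrolene replicate 2 was within it. The rise was 3.85-fold with LPC (log2 fold change 1.95, SE 0.35, adjusted p = 2.47e-05), 2.73-fold with dantrolene (1.45, adjusted p = 0.00205), and 2.18-fold with LPC + dantrolene (1.12, adjusted p = 0.0261). Without LPC + dantrolene replicate 2 the last value was 1.54 (adjusted p = 3.63e-05). The other co-repressors, SKI and TGIF1, had log2 fold changes between −0.43 and −0.07 against vehicle and passed no test.

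**Figure D2:**
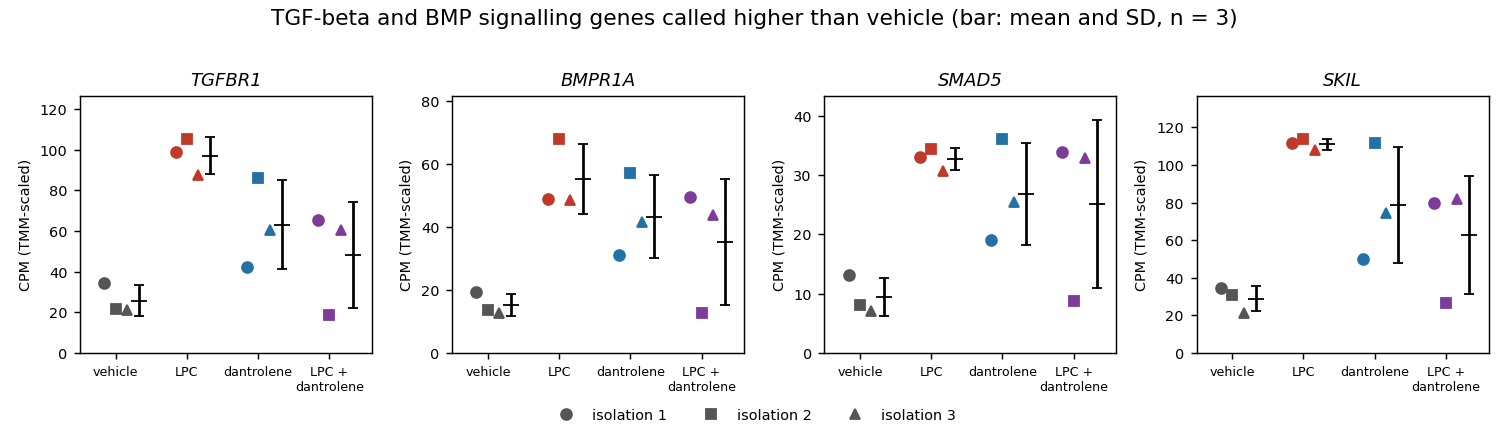
CPM (y axis, TMM-scaled, from 0) of TGFBR1, BMPR1A, SMAD5, and SKIL in the 4 groups (x axis), with a circle, square, or triangle for isolation 1, 2, or 3 and a bar for the mean and SD of 3 libraries. The vehicle points are low, the LPC points are high, and the square of LPC + dantrolene (replicate 2) sits at the vehicle level in each panel.

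The 4 genes were the only ones of the set to rise with LPC (8.70% of the 46 tested, beside 8.54% of all tested genes called higher in that comparison). No gene of the set fell with LPC in edgeR, where 0.144% of all genes did, or in DESeq2, and 3 had an unadjusted p under 0.05 in that direction. The same 4 genes rose with dantrolene, where 7.54% of all genes were called higher, and 3 of them (BMPR1A, SMAD5, and SKIL) with LPC + dantrolene, where 6.23% were. These shares are near those of all genes. Of the 46 tested genes, 8 had LPC libraries that all lay above the vehicle libraries (16.6% of all genes) and 5 had LPC libraries that all lay below (10.6%). For dantrolene, 5 lay above (16.1%) and 7 below (11.0%), and for LPC + dantrolene none lay above (4.71%) and 3 below (5.74%).

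In TGFBR1, BMPR1A, SMAD2, SMAD5, and SKIL the 4 lowest libraries of the 12 were the 3 vehicle libraries and LPC + dantrolene replicate 2, an order that 11.7% of all tested genes had. That library was the lowest of the 12 for 12 of the 46 genes (24.4% of all genes) and the highest for 8 (20.7%). The rise with LPC alone was called for all 4 genes in every alternative run. The rise with dantrolene alone was lost for all 4 when dantrolene replicate 2 was left out (adjusted p = 0.0641 to 0.168), for TGFBR1 and SMAD5 also without vehicle replicate 2 (0.107 and 0.0527), and for TGFBR1 without vehicle replicate 3 (0.0550). Over all genes, the share called higher with dantrolene fell from 7.54% to 2.77% without dantrolene replicate 2. It was 4.03% and 4.44% without vehicle replicates 2 and 3.

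The rise with LPC + dantrolene depended on more of the libraries. It was lost for BMPR1A, SMAD5, and SKIL alike when any of vehicle replicates 2 and 3 or LPC + dantrolene replicates 1 and 3 was left out (adjusted p = 0.0541 to 0.296), for BMPR1A and SKIL also without LPC replicate 2 (0.0696 and 0.0820), and for SKIL without vehicle replicate 1 or LPC replicate 1 (0.0657 and 0.0576). With the isolation as a block, BMPR1A (adjusted p = 0.0828) and SKIL (0.0955) were no longer called with LPC + dantrolene. The share of all genes called higher with LPC + dantrolene, 6.23% in the main fit, also fell in these runs. It was 3.60% and 3.88% without vehicle replicates 2 and 3, and 3.46% and 3.42% without LPC + dantrolene replicates 1 and 3. Without LPC replicate 2 it was 4.41%, without vehicle or LPC replicate 1 it was 5.05% or 5.14%, and with the block 4.23%.

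TGFBR1, BMPR1A, SMAD5, and SKIL rose with dantrolene alone as well as with LPC alone. None of the 4 was called between LPC + dantrolene and either agent alone, in the main fit or in any alternative. The fitted effect of LPC on them was smaller in the presence of dantrolene than without it. This was tested by the interaction, the effect of LPC with dantrolene less its effect without, in which 4.49% of all genes were called lower and 0.159% higher. TGFBR1 had an interaction of −2.30 on the log2 scale (SE 0.49, adjusted p = 0.00191), SKIL of −2.27 (SE 0.49, adjusted p = 0.00193), BMPR1A of −2.14 (SE 0.50, adjusted p = 0.00398), and SMAD5 of −1.88 (SE 0.51, adjusted p = 0.0147). These 4 were the only genes of the 46 called in this test. No gene of the set was called higher in edgeR or in DESeq2, and 2 had an unadjusted p under 0.05 in that direction. Without LPC + dantrolene replicate 2 the values were −1.98, −1.97, −1.81, and −1.54 in that order, with adjusted p between 0.00152 and 0.0171. The interaction was not called for any of the 4 without LPC replicate 2 (adjusted p = 0.0731 to 0.132) or without dantrolene replicate 2 (0.0641 to 0.151), and SMAD5 also lost it without vehicle replicate 2 (0.0957), without LPC replicate 1 (0.0717), with total counts alone (0.0775), and with the isolation block (0.0539). The share of all genes called lower in the interaction was 0.0293% without LPC replicate 2 and 0.228% without dantrolene replicate 2.

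Among the 6 ligands, TGFB3 and BMP4 fell with dantrolene alone. TGFB3 is a TGF-beta isoform (chr7:99133873-99162239), and its level was 401.9, 273.5, and 422.1 CPM with vehicle, 173.0, 317.9, and 369.8 CPM with LPC, 233.2, 129.2, and 142.9 CPM with dantrolene, and 122.1, 304.5, and 120.6 CPM with LPC + dantrolene. The dantrolene libraries were all below the vehicle libraries, whereas those with LPC overlapped with them. TGFB3 was 2.17-fold lower with dantrolene (log2 fold change −1.12, SE 0.35, adjusted p = 0.025). With LPC + dantrolene the value was −1.004 (SE 0.35, adjusted p = 0.0619), and without replicate 2 of that group it was −1.53 (SE 0.32, adjusted p = 0.000205).

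BMP4 is a BMP ligand (chr1:183415989-183422888). It was at 87.2, 66.5, and 118.0 CPM with vehicle, 39.3, 86.1, and 82.1 CPM with LPC, 56.2, 37.8, and 37.8 CPM with dantrolene, and 35.6, 79.9, and 28.4 CPM with LPC + dantrolene. The order of the libraries was much like that of TGFB3, with LPC + dantrolene replicate 2 within the vehicle range. BMP4 was 2.06-fold lower with dantrolene (log2 fold change −1.04, SE 0.35, adjusted p = 0.0408), and the value with LPC + dantrolene was −0.92 (adjusted p = 0.105), or −1.44 (adjusted p = 0.000449) without replicate 2. BMP6, another BMP ligand, was at 23.8 to 31.0 CPM with dantrolene, below the vehicle range of 46.3 to 57.8 CPM, and its log2 fold change was −0.96 (adjusted p = 0.0624).

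INHBA encodes the subunit of activin A. It was at 177.6, 136.2, and 164.6 CPM with vehicle, 205.2, 232.4, and 316.8 CPM with LPC, 126.3, 140.1, and 108.5 CPM with dantrolene, and 141.9, 58.5, and 79.5 CPM with LPC + dantrolene. All LPC libraries lay above all libraries of the other groups, but the log2 fold change of 0.66 with LPC against vehicle did not pass the test (SE 0.33, adjusted p = 0.302). Against LPC alone, INHBA was 2.69-fold lower with LPC + dantrolene (log2 fold change −1.43, SE 0.33, adjusted p = 0.0152). This was the only gene of the set called in that comparison, where 0.288% of all genes were called lower and 0.219% higher, and no gene of the set had an unadjusted p under 0.05 for a higher level or was called higher by DESeq2. Without LPC + dantrolene replicate 2, INHBA was at −1.19 and TGFB3 at −1.26 (both adjusted p = 0.0258). The call for INHBA was lost without LPC replicate 2 (adjusted p = 0.124), LPC replicate 3 (0.230), or LPC + dantrolene replicate 3 (0.177), and with the isolation block (0.0670). Over all genes, the share called lower in these runs was 0.0440% to 0.0807%. The interaction of INHBA was −1.08 (SE 0.46, adjusted p = 0.208).

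TGFB1 and TGFB2 passed no test. TGFB2 was at 109 to 149 CPM with vehicle, 72.5 to 85.1 CPM with dantrolene, and 48.1 to 95.3 CPM with LPC + dantrolene, without overlap of either group with vehicle, and its log2 fold changes were −0.61 (adjusted p = 0.348) and −0.78 (adjusted p = 0.161). TGFB1 had log2 fold changes of −0.50 with LPC, −0.09 with dantrolene, and 0.04 with LPC + dantrolene.

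Among the 6 target genes, ID3 and TGFBI fell in both groups that held dantrolene. ID3, a direct target of BMP signalling that inhibits basic helix-loop-helix factors (chr6:81422541-81424169), was at 171.4, 380.8, and 467.4 CPM with vehicle, 239.0, 152.4, and 225.5 CPM with LPC, 122.7, 192.1, and 148.0 CPM with dantrolene, and 190.1, 127.9, and 75.8 CPM with LPC + dantrolene. Vehicle replicate 1 was far below the other 2 vehicle libraries and overlapped with each treated group. ID3 was 2.20-fold lower with dantrolene (log2 fold change −1.14, SE 0.34, adjusted p = 0.0204) and 2.59-fold lower with LPC + dantrolene (−1.37, SE 0.35, adjusted p = 0.00402), and the value with LPC was −0.72 (SE 0.34, adjusted p = 0.256).

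TGFBI, a secreted matrix protein induced by TGF-beta (chr2:138191793-138225373), was at 88.8, 178.6, and 152.5 CPM with vehicle, 126.8, 80.5, and 118.7 CPM with LPC, 39.3, 70.0, and 49.7 CPM with dantrolene, and 80.5, 66.8, and 60.7 CPM with LPC + dantrolene. Every library with dantrolene, alone or with LPC, lay below every vehicle library. TGFBI was 2.64-fold lower with dantrolene (log2 fold change −1.40, SE 0.33, adjusted p = 0.00171) and 2.02-fold lower with LPC + dantrolene (−1.01, SE 0.33, adjusted p = 0.0390). The other ID genes passed no test. ID1 had values of −0.76 with LPC, −0.80 with dantrolene, and −0.91 with LPC + dantrolene (adjusted p of 0.137 or more), ID2 lay between −0.50 and −0.26, and ID4 between −0.70 and 0.0044. PMEPA1, a TGF-beta target that feeds back on SMAD2 and SMAD3, had values of −0.20, −0.48, and −0.53.

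**Figure D3:**
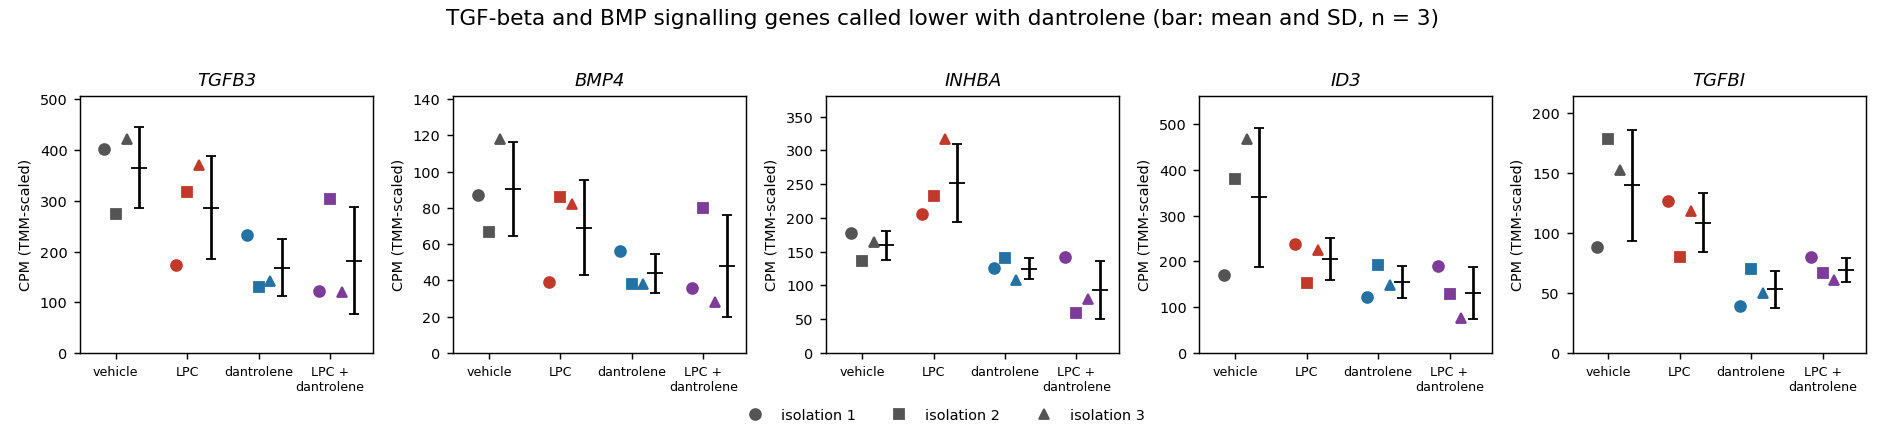
CPM (y axis, TMM-scaled, from 0) of TGFB3, BMP4, INHBA, ID3, and TGFBI in the 4 groups (x axis), with a circle, square, or triangle for isolation 1, 2, or 3 and a bar for the mean and SD of 3 libraries. The dantrolene points of TGFB3, BMP4, and TGFBI lie below all vehicle points, and the square of LPC + dantrolene (replicate 2) stands at the vehicle level for TGFB3 and BMP4.

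With dantrolene, 4 of the 46 genes were called lower (8.70%), beside 1.26% of all tested genes, and with LPC + dantrolene 2 were (4.35%), beside 0.900% of all genes. Without LPC + dantrolene replicate 2, the genes called lower with dantrolene numbered 7 (2.09% of all genes), with BMP6, LTBP2, and FSTL3 added. Those called lower with LPC + dantrolene then numbered 9 (2.89% of all genes), namely TGFB3, BMP4, BMP6, LTBP2, FSTL3, ID3, ID4, PMEPA1, and TGFBI, with log2 fold changes from −0.93 to −1.53. Of the marker sums given above, those of the fibroblast and valve interstitial markers and of the endothelial markers were also lower with dantrolene than with vehicle, without overlap, whereas the smooth muscle sums overlapped with those of vehicle. With LPC + dantrolene only the endothelial sums of these 3 lists lay below those of vehicle without overlap, and the part of these sums in the falls was not tested.

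Of the falls, that of TGFBI with dantrolene was called in every alternative run, and the others were not. DESeq2 did not call TGFB3 (adjusted p = 0.0629) or BMP4 (0.108) with dantrolene. In edgeR with total counts alone, TGFB3 (0.0933), BMP4 (0.186), and ID3 (0.154) were not called with dantrolene, nor was BMP4 with RLE size factors (0.0644). With the isolation as a block, the calls for TGFB3 (adjusted p = 0.0717), BMP4 (0.107), and ID3 (0.0619) with dantrolene and for TGFBI with LPC + dantrolene (0.112) were lost. The call for TGFB3 with dantrolene was lost without vehicle replicate 1 or 3, LPC replicate 2, or dantrolene replicate 2 or 3 (adjusted p = 0.0740 to 0.244), and that for BMP4 without any single vehicle or dantrolene library or LPC replicate 1 or 2 (0.0539 to 0.414). The call for ID3 was lost with dantrolene without vehicle replicate 2 or 3, LPC replicate 2, or any dantrolene library (0.0537 to 0.357), and with LPC + dantrolene without vehicle replicate 2 or 3 or LPC + dantrolene replicate 3 (0.0529 to 0.124). TGFBI with LPC + dantrolene was lost without vehicle replicate 2 or 3, any LPC library, dantrolene replicate 1 or 3, or LPC + dantrolene replicate 1 or 3 (0.0524 to 0.318). Over all genes, the share called lower with dantrolene was 1.26%, and 0.383% to 2.09% with a library left out. For LPC + dantrolene it was 0.900%, and 0.308% to 2.89% with a library left out.

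The regulators outside the cell passed no test. The 4 latent TGF-beta binding proteins, LTBP1 to LTBP4, which hold TGF-beta in the matrix or assemble elastic fibres, had log2 fold changes between −0.88 and −0.041 in the 3 comparisons with vehicle, but over the alternatives LTBP1 and LTBP4 also reached values above 0 (0.12 and 0.20 with LPC + dantrolene). LTBP2 with dantrolene had the value of −0.88 (SE 0.34, adjusted p = 0.0978), and its dantrolene libraries (1372 to 2857 CPM) lay below the vehicle range of 3427 to 4262 CPM. Among the antagonists, FSTL3, which binds activin, was at 71.4 to 130.8 CPM with dantrolene and at 149 to 215 CPM with vehicle (log2 fold change −0.87, adjusted p = 0.0955). FSTL1 and CHRDL1 lay between −0.63 and −0.012 against vehicle. Follistatin (FST) was detected at 0.768 to 4.20 CPM and had values from −0.82 to −0.54, each with an SE near 0.55. Gremlin (GREM1) had at most 16 counts per library, and its log2 fold change of 1.48 with LPC had an SE of 1.15 (adjusted p = 0.600), so a difference was not detectable at this depth. BAMBI, a pseudoreceptor that lacks the kinase domain, had values of −0.53, −0.08, and 0.06 in the 3 comparisons with vehicle.

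**Figure D4:**
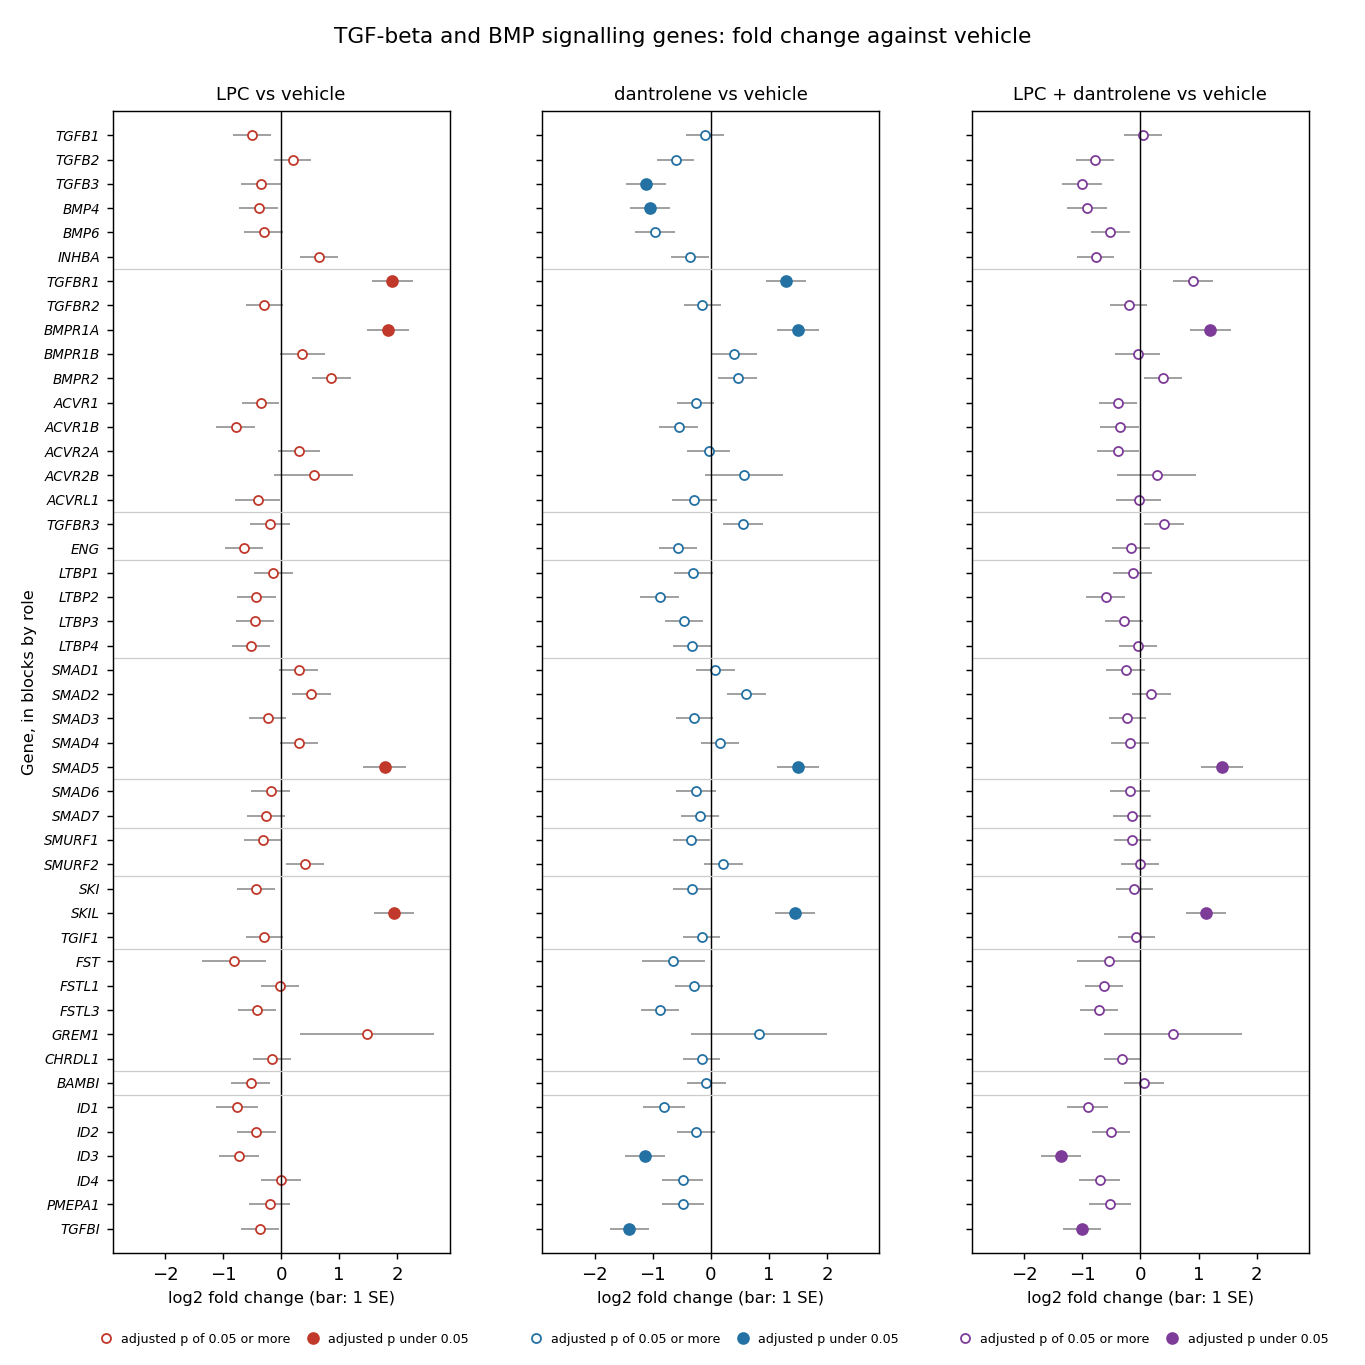
Fitted log2 fold change against vehicle (x axis, bars of 1 SE) of each of the 46 tested genes (y axis, in blocks by role) with LPC, dantrolene, or LPC + dantrolene, with filled points for an adjusted p under 0.05. Filled points to the right are TGFBR1, BMPR1A, SMAD5, and SKIL, filled points to the left are TGFB3, BMP4, ID3, and TGFBI, and 41, 38, and 40 genes lie within 1 of 0.

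No gene of the set passed the test when LPC was added to dantrolene. Against dantrolene alone, LPC + dantrolene had log2 fold changes from −0.46 (BMPR1B) to 0.44 (BMP6), with a median SE of 0.33, and in edgeR no gene of the set was called or had an unadjusted p under 0.05 in either direction. DESeq2 called none either. Over all genes, 0.0151% were called higher and 0.00757% lower in this comparison. In no gene of the set did the 3 libraries with both agents all lie above (2.54% of all genes) or all below (2.17%) those with dantrolene. Against LPC alone, the libraries with LPC + dantrolene all lay below those with LPC for 7 genes (4.93% of all genes), which were TGFB2, INHBA, TGFBR1, ACVR2A, SKIL, ID4, and TGFBI, and above them for TGFBR3 (4.86% of all genes). After INHBA, the largest differences in that comparison were −1.01 for TGFBR1 (SE 0.35, adjusted p = 0.269) and −0.98 for TGFB2 (SE 0.32, adjusted p = 0.208).

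A second list held 105 other genes of the pathway, of which 99 have a row and 78 were tested. Of the alternatives, only the run without LPC + dantrolene replicate 2 was examined for this list. With LPC, 13 of the 78 rose (16.7%, beside 8.54% of all genes) and none fell (0.144% of all genes). The 4 with the smallest adjusted p were ZFYVE16, XIAP, USP15, and ZEB2. ZFYVE16 (endofin) is an endosomal anchor for SMADs, XIAP links type I BMP receptors to the TAK1 kinase complex, USP15 removes ubiquitin from type I receptors and SMADs, and ZEB2 is a SMAD-binding repressor. ZFYVE16 was at 5.23 to 9.54 CPM with vehicle and 25.8 to 41.9 CPM with LPC (log2 fold change 2.18, SE 0.38, adjusted p = 1.17e-05). XIAP rose by 2.01 on the log2 scale (adjusted p = 2.28e-05), USP15 by 2.00 (adjusted p = 2.51e-05), and ZEB2 by 1.49 (adjusted p = 0.00124). The TAK1 kinase gene MAP3K7 and its partners TAB2 and TAB3 were also among the 13, with adjusted p of 0.0331, 0.0447, and 0.0159. TAB1, another partner on the list, was not among the 13.

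With dantrolene, 8 of the 78 rose (10.3%, beside 7.54% of all genes) and 4 fell (5.13%, beside 1.26%). With LPC + dantrolene 7 rose (8.97%, beside 6.23% of all genes) and 4 fell (5.13%, beside 0.900%). ZFYVE16 had log2 fold changes of 2.22 and 2.38 in these comparisons, and USP15 of 1.66 and 1.50. Those that fell in both cases included GDF6, a BMP-family ligand, CCN2, a known target of TGF-beta, and LMCD1, listed as a target. GDF6 was at 20.4 to 41.2 CPM with vehicle, 7.64 to 14.6 CPM with dantrolene, and 4.11 to 13.0 CPM with LPC + dantrolene (log2 fold change −1.59, adjusted p = 0.00131, and −1.88, adjusted p = 0.000171). CCN2, which encodes connective tissue growth factor, had values of −1.34 (adjusted p = 0.00942) and −1.22 (adjusted p = 0.0224), and LMCD1 of −1.84 (adjusted p = 0.000618) and −1.79 (adjusted p = 0.001). With LPC alone these 3 genes had values between −0.40 and −0.10, and none was called.

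Against LPC, LPC + dantrolene lowered GDF6 (log2 fold change −1.78, adjusted p = 0.00408) and LMCD1 (−1.55, adjusted p = 0.0450) and raised GDF15, a distant TGF-beta family member (1.48, adjusted p = 0.0243). Over all genes, 0.288% were called lower and 0.219% higher in that comparison. No other pathway gene was called against dantrolene alone (0.0151% of all genes higher and 0.00757% lower). In the interaction, 5 of the 78 were called lower (6.41%, beside 4.49% of all genes). These were USP15 (−2.16), XIAP (−2.07), ZFYVE16 (−2.02), ITGB8 (−1.75), and ZEB2 (−1.73). Of the 78 genes, 14 had the 3 vehicle libraries and LPC + dantrolene replicate 2 as their 4 lowest libraries (11.7% of all genes). Among them were USP15, XIAP, ZFYVE16, ITGB8, and ZEB2. Without that library, 15 of the 78 were called higher with LPC (11.9% of all genes), 16 with dantrolene (11.2%), and 16 with LPC + dantrolene (12.6%), and 4 were called lower in the interaction (3.76%), with ITGB8 no longer called. The values with LPC + dantrolene against vehicle were then −1.87 for CCN2, −2.40 for LMCD1, −1.81 for GDF6, 2.78 for ZFYVE16, and 1.94 for USP15. Against LPC they were −2.24 for LMCD1, −1.79 for GDF6, and 1.61 for GDF15, and CCN2 (−1.55) and the cell cycle inhibitor gene CDKN1A (adjusted p = 0.00757, higher) were called as well.

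**Figure D5:**
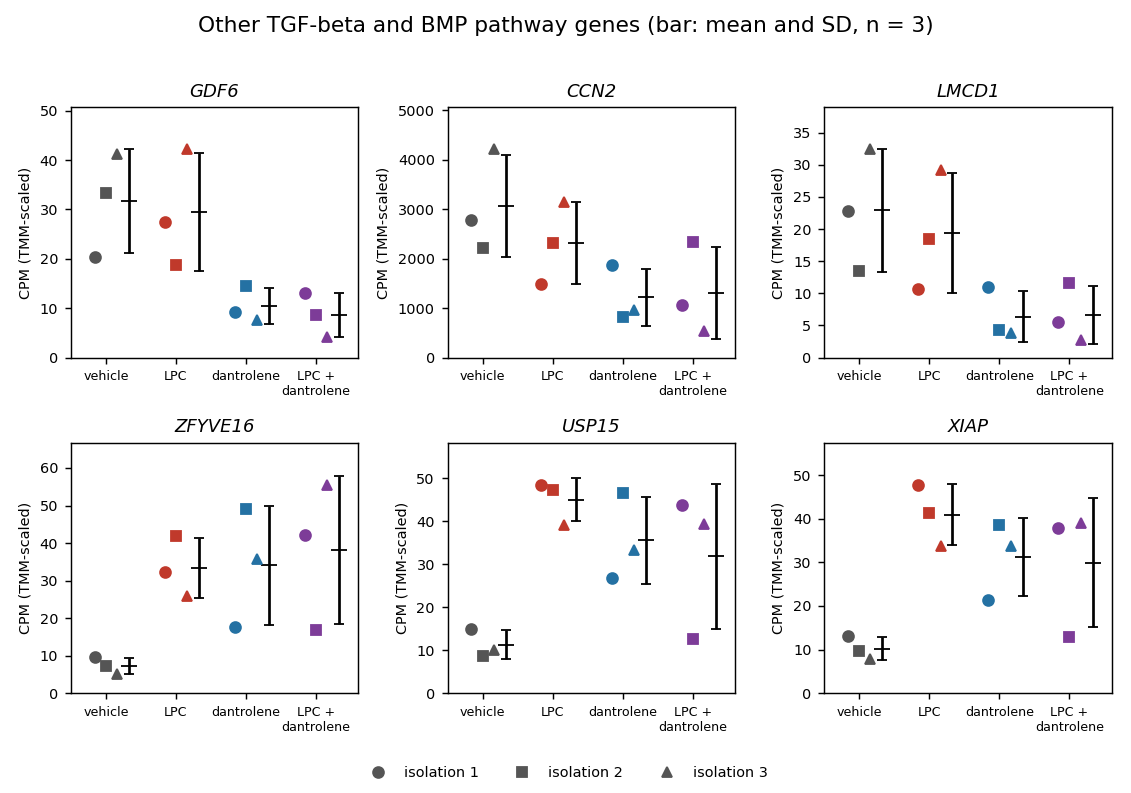
CPM (y axis, TMM-scaled, from 0) of 6 other pathway genes in the 4 groups (x axis), with a circle, square, or triangle for isolation 1, 2, or 3 and a bar for the mean and SD of 3 libraries. In the top row (GDF6, CCN2, LMCD1) the dantrolene groups have the lower means, and in the bottom row (ZFYVE16, USP15, XIAP) the vehicle points lie below all LPC and dantrolene points.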

How the data were processed

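Poly-A RNA of 12 paVIC libraries was analysed. The authors aligned the reads to the pig genome, adjusted them for batch with ComBat, and deposited whole-number counts per gene. The study's methods name STAR (the submitters' processing notes name HISAT2 2.0.5, R 4.1.1, DESeq2 1.32.0, and Sscrofa11.1), and the annotation release and strand setting are not given in the sources used here, so overlapping genes cannot be told apart. ComBat spent degrees of freedom that are still counted as free in the fits below, which can make adjusted p-values too small. The deposited tables of 4 comparisons (mean counts, log2 fold changes, SE, and p-values) were not used.

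Counts were fitted in R 4.3.3 with edgeR 4.0.16 (filterByExpr, TMM, glmQLFit, glmQLFTest), in a single model of the 12 libraries with the group as its only term. A call needed a Benjamini-Hochberg adjusted p below 0.05 over the 13216 genes tested. Each SE is the absolute log2 fold change divided by the square root of the test's F value. The fit was tested on simulated counts. As alternatives, each library was left out in turn, the isolation was added as a block, only the groups compared were fitted, the threshold was set to 0.1, the filter was dropped or replaced by a minimum of 10 counts in each library, the scaling was changed to RLE size factors or total counts, and DESeq2 1.42.0 (Wald test) was run. The 47 genes, the other lists, and the tests were chosen with earlier results of these data known.

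By rule, a gene of the set called in any comparison was given in every library, the others by ranges with the 2 largest fold changes per comparison, and other pathway genes up to the 4 smallest adjusted p per comparison and direction, or as a group. An item counted among the other pathway genes is not reported here by name. Coordinates are those of RefSeq genes on Sscrofa11.1, matched by symbol. The labels tie each replicate number to an isolation. The main fit did not use this pairing, and same-numbered libraries were paired only where the isolation was added as a block. In the check of the pairing, deviations of same-isolation libraries from their group means correlated with a median of −0.152 (18 pairs, −0.536 to 0.207). For libraries of different isolation and group the median was 0.108 (36 pairs, −0.246 to 0.450). The batch adjustment can lower the same-isolation correlations, so the check cannot show whether the pairing holds. Intervals of counting error are not given, since the spread between libraries was used, and the floor of 3 counts covers counting error only.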

Additional observations from a re-analysis of the deposited data

Results flagged for a closer look

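A total of 4 genes of the set were singled out because the effect of LPC differed between cells with and without dantrolene, by the interaction term of the edgeR fit. The interaction was −2.30 for TGFBR1, −2.27 for SKIL, −2.14 for BMPR1A, and −1.88 for SMAD5 on the log2 scale, with adjusted p between 0.00191 and 0.0147. Without LPC + dantrolene replicate 2, a library at the vehicle level for these genes, the values were −1.98, −1.97, −1.81, and −1.54. The share of all tested genes called lower in this test was 4.49%. None of the 4 was called without LPC replicate 2 or without dantrolene replicate 2, and the share of all genes called lower was then 0.0293% or 0.228%.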

How the results depend on the processing

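The rise of TGFBR1, BMPR1A, SMAD5, and SKIL with LPC and the fall of TGFBI with dantrolene were called under each of the 20 alternatives run, and no call of a gene of the set changed direction. The genes called lower with dantrolene numbered 4 (1.26% of all tested genes), 2 with DESeq2 (0.772%), and 1 with total counts alone (0.462%). They numbered 1 with the isolation as a replicate block (0.583%) and 7 with only the groups compared (2.29%). At an adjusted p under 0.1 they numbered 7 (1.86%), and with a library left out 1 to 7 (0.383% to 2.09%). The genes called higher with LPC + dantrolene numbered 3 (6.23% of all genes). This count was 1 with the replicate block (4.23%) and 0 with only the groups compared (4.16%). Those called lower numbered 2 (0.900%), 1 with RLE size factors (0.681%), and 1 with total counts alone (0.393%). With the replicate block 1 was called lower (0.446%), and with only the groups compared 0 (0.247%). With a library left out, 0 to 4 were called higher (3.42% to 12.6%) and 0 to 9 lower (0.308% to 2.89%). INHBA, the gene called lower than with LPC, was not called (0 genes) with total counts alone (0.0151% of all genes). Nor was it called with the replicate block (0.0757%) or only the groups compared (0.0398%). With a library left out, 0 to 2 genes of the set were called lower there (0.0440% to 0.641% of all genes). Leaving out a library gave 0 to 4 genes higher with dantrolene (2.77% to 11.2% of all genes) and 0 to 5 lower in the interaction (0.0293% to 6.52%). For LPC it gave 4 to 5 higher (4.90% to 11.9%). The causes were not tested. The pairing by isolation, kept as a replicate block, changed no other call of the set than those given with the results. With only 3 libraries per group, and SEs near 0.33 on the log2 scale for most of the set, smaller differences could not be shown.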

Other observations

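FSTL3 was the only gene of the set for which the 3 vehicle libraries and LPC + dantrolene replicate 2 were the 4 highest of the 12 (2.05% of all tested genes). Its level was 149 to 215 CPM with vehicle and 168 CPM in that library, and at most 148 CPM in the other 8. NOG had 39 counts in LPC + dantrolene replicate 2, and at most 14 counts in each of the others.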
